A study of Mus musculus with 9 samples.

Results

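The genes described here encode 10 proteins of the cornified envelope or of the cell layers that build it: Lce3f, Lor, Ivl, Sbsn, Krtdap, Casp14, Sprr1a, Sprr1b, Tgm1 and Dsg1a. They were taken from the array table as the genes with these symbols in the platform annotation, and they make up 10 of 18193 genes that had a probe set with a single symbol. The value of a gene is that of its probe set with the largest average over the arrays, and 6 further probe sets of the same genes, out of 16 in all, served as checks. RNA from the centre of the cornea had been hybridised to Affymetrix arrays in 3 inbred strains, with 3 male mice per strain and 1 array per mouse. The strains were C57Bl/6J (B6), for which the labels give no corneal thickness, C57BLKS/J (KS), labelled as having a thin cornea, and SJL/J (SJL), labelled as having a thick cornea. All mice were adults of 4 months, and the 2 central punches of 2 mm from the eyes of a mouse were combined. Thickness and all other strain differences cannot be told apart in this design.

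The cornified envelope is the insoluble protein shell that replaces the plasma membrane of terminally differentiated keratinocytes in skin. Precursor proteins such as involucrin, loricrin and the small proline-rich proteins are cross-linked under the membrane by transglutaminases, and desmosomes and lipids tie the dead cells into a barrier. The corneal epithelium is stratified as well, but it is not normally cornified and keeps a moist surface of living cells. Many of the precursor genes lie side by side in the epidermal differentiation complex, a gene cluster that is on chromosome 3 in the mouse.

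Every one of the 9 arrays carried the markers of corneal epithelium. The 7 listed markers, Krt12, Aldh3a1, Pax6, Tkt, Clu, Slurp1 and Upk1b, all lay at or above 100 on all arrays, and their mean log2(intensity + 10) was 14.1 to 14.2 on each array. Of 14 hair and eyelid markers with a probe set, 12 lay below 16 on all arrays, among them Krt71, Krt25 and Hoxc13. S100a3 was the exception at 306 to 899, and Dsc1 lay in between. KS replicate 3 stood apart in its photoreceptor transcripts, with a mean log2 value of the retina markers of 8.98 against 3.89 to 3.99 on the other 8 arrays. The log2 ratio of 3' to 5' signal of the Gapdh control, a measure of RNA integrity, was 1.55 on B6 replicate 3 and 1.17 on SJL replicate 2, and 0.73 to 0.93 on the other 7 arrays. In these bulk samples, fewer cells of a type and less RNA per cell cannot be told apart.

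Promoters of 5 members are shown first. They come from neighbouring genes whose probe sets gave opposite signals in the cornea, or from the gene with the largest strain difference. The sequences run 5′ to 3′ from 250 bases before to 10 bases after the annotated start. They come from the RefSeq annotation of GRCm38.p6, a reference that was built from C57BL/6J mice. Capitals mark matches on either strand to TATAAA (the TATA box), TGANTCA (the AP-1 site, bound by Fos and Jun proteins) and CACCC (the core of sites bound by Krüppel-like factors, which reads GGGTG on the other strand). The Sprr1a probe set gave clear signal in the cornea and the only Sprr1b probe set did not. Sbsn gave signal and the only Krtdap probe set did not. Lce3f differed most between strains.
Sprr1a, chr3:92485872-92486131, minus strand: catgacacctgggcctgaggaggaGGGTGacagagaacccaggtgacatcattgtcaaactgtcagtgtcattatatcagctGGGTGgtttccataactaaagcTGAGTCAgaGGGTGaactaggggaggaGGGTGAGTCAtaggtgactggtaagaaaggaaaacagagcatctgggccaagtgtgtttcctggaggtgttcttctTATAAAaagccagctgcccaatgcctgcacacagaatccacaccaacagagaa
Sprr1b, chr3:92438770-92439029, minus strand: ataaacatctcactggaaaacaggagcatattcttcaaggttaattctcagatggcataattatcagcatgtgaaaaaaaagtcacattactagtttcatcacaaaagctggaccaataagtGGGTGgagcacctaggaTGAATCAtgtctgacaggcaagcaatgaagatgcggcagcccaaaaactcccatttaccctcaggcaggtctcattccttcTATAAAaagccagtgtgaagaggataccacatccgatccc
Sbsn, chr7:30751221-30751480, plus strand: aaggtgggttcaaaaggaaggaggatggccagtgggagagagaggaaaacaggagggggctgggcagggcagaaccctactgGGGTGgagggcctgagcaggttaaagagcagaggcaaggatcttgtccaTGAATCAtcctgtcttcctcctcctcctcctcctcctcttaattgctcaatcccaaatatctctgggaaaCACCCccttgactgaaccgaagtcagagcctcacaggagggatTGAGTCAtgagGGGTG
Krtdap, chr7:30787655-30787914, plus strand: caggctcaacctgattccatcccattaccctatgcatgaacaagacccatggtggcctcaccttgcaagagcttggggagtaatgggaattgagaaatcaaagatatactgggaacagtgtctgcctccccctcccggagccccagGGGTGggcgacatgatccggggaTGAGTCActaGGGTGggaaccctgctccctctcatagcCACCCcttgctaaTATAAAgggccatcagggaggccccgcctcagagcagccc
Lce3f, chr3:92991967-92992226, plus strand: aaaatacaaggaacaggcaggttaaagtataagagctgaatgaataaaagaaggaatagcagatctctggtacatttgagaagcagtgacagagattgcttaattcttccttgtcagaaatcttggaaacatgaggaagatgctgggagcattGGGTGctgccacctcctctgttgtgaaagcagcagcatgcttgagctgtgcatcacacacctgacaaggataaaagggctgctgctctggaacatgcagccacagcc

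Windows of 300 bases, from 250 before to 50 after the start, were searched for 9 members, all except Dsg1a. The AP-1 letters were found in 6 of the 9, Ivl, Krtdap, Lor, Sbsn, Sprr1a and Sprr1b, and in 7.81% of 32851 promoters of that length. TATAAA was found in 5 of the 9, Ivl, Krtdap, Lor, Sprr1a and Sprr1b, against 13.6% of all promoters. CACCC was found in 8 of the 9, all except Lor, against 57.5%. Neighbours whose probe sets differed in corneal signal shared most of these letters. Sprr1a and Sprr1b each held all 3 motifs. Sbsn and Krtdap both held AP-1 and CACCC matches, and Krtdap alone of the pair held TATAAA. Sprr1b held TATAAA with its first base 30 bases before the start and an AP-1 match 111 bases before it, and Sprr1a held TATAAA 43 bases before the start and AP-1 matches 146 and 116 bases before it. In Sprr1a the second AP-1 match overlaps a CACCC match on the other strand. Aligned end to end with gaps, the Sprr1a and Sprr1b windows were identical at 52.6% of 323 alignment columns and the Sbsn and Krtdap windows at 44.7% of 320. Without gaps, 71 and 81 of the 300 positions were identical. The identity of unrelated windows was not measured, so these values do not show that the promoters are alike. The Lce3f window held neither TATAAA nor the AP-1 letters, and its single match was CACCC on the other strand, 97 bases before the start. Variants of these letters were not searched, so a TATA-like element is not excluded. These matches describe the reference sequence, and no sequence of KS or SJL was used.

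Some members gave clear signal in the cornea and others lay near the lower end of the scale, as did genes in general. A gene was called clear where its probe set lay at 100 or above on all 9 arrays and near the lower end of the scale where it lay below 16 on all 9, a range that held 54.6% of all intensities. By this measure 4 members were clear (Ivl, Sprr1a, Tgm1 and Dsg1a), 3 lay in between (Lce3f, Sbsn and Casp14) and 3 were near the lower end (Lor, Krtdap and Sprr1b). Over all 18193 genes, 46.0% were clear, 13.7% lay in between and 40.3% were near the lower end. Levels near the lower end are upper bounds of the probe set signal, because no detection calls were used. They do not show that a transcript is absent, because a probe set can be dim for a gene that gives signal elsewhere. Casp14 and Sbsn each had a probe set near the lower end beside a brighter one. Krtdap and Sprr1b had no other probe set as a check. Beyond these classes, levels of different probe sets are not compared with each other.

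**Figure D1:**
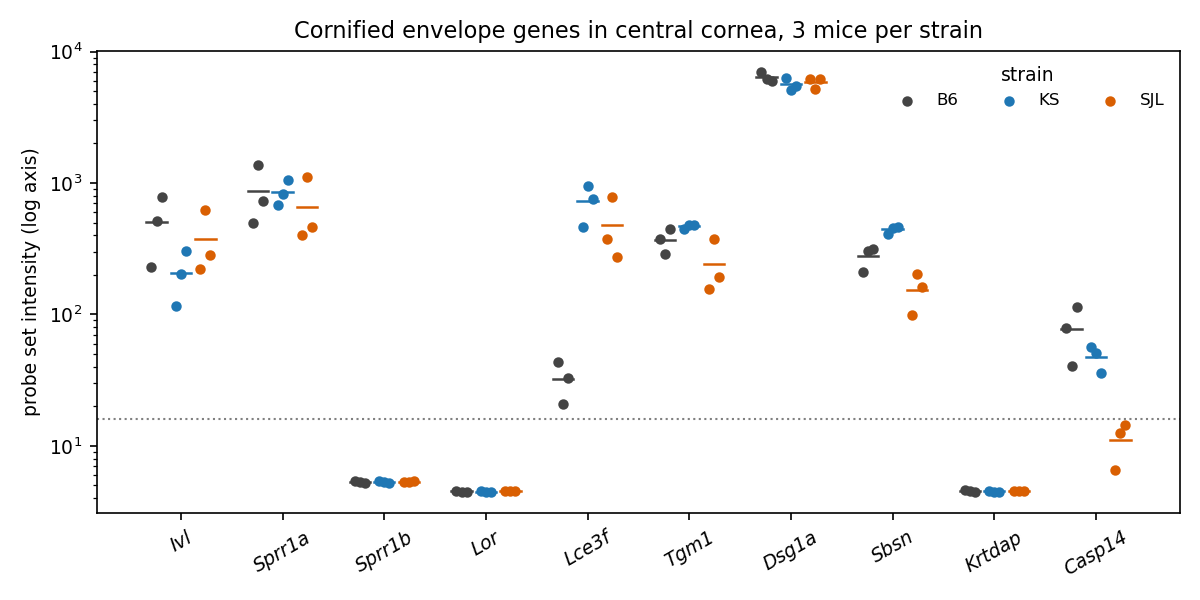
Probe set intensity (log axis) of the 10 cornified envelope genes in each of the 9 arrays, with the mean of each strain as a bar and the threshold of 16 as a dotted line. Lor, Krtdap and Sprr1b stay between 4.44 and 5.44 on all arrays, and the 3 B6 arrays lie below all KS and SJL arrays for Lce3f.

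Among the precursors that are laid down first, involucrin was clearly expressed. Ivl (probe set 1439878_at), which encodes this early scaffold of the envelope, had intensities of 229, 516 and 780 in B6, 116, 202 and 302 in KS, and 222, 619 and 285 in SJL. The 3 ranges overlapped, and within B6 alone the highest mouse was more than 3 times the lowest. KS had the lowest mean, 207 ± 93.3 against 508 ± 276 in B6 (SD, n = 3), but the log2 difference of -1.19 had a 95% confidence interval from -2.41 to 0.03 and was not called by limma (adjusted p = 0.271). SJL differed from KS by 0.79 (interval -0.43 to 2.01) and from B6 by -0.40 (interval -1.62 to 0.82), neither of them called. The check probe set 1422222_at gave the same order of strain means, 381 ± 145, 185 ± 60.9 and 284 ± 150 in B6, KS and SJL.

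The small proline-rich proteins bridge other envelope proteins, and their genes rise in stressed epithelia. Sprr1a (1449133_at) was clear on all arrays, at 499, 1363 and 730 in B6, 683, 828 and 1051 in KS, and 405, 1114 and 458 in SJL. The strains overlapped fully, and no contrast was called, with log2 differences of -0.50 in SJL against KS (interval -1.52 to 0.52), 0.08 in KS against B6 (interval -0.94 to 1.11) and -0.41 in SJL against B6 (interval -1.44 to 0.61). Its near relative Sprr1b (1422672_at) lay between 5.20 and 5.44 on all 9 arrays. In the order of protein-coding genes Sprr3 is the 1 gene between them, and it too was near the lower end.

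Loricrin is the major envelope protein of mouse epidermis. All 3 Lor probe sets, 1448745_s_at, 1420183_at and 1420184_at, were near the lower end, with 4.44 to 4.55, 4.43 to 4.51 and 3.90 to 3.96 over the 9 arrays. Krtdap (1434227_at), which encodes a small secreted protein of differentiating keratinocytes, lay between 4.47 and 4.58. These 2 genes and Sprr1b fell below the filter on dim probe sets and were not tested between strains.

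The late cornified envelope gene Lce3f showed the largest strain difference of the members. Lce proteins are small substrates of transglutaminase that join the envelope late. Lce3f (1456248_at) had intensities of 43.6, 20.8 and 32.9 in B6, 463, 951 and 756 in KS, and 376, 788 and 272 in SJL. Every KS and SJL mouse lay above every B6 mouse, while KS and SJL overlapped. On the log2(intensity + 10) scale Lce3f was higher in KS than in B6 by 4.09 ± 0.41 (SE; 95% interval 3.15 to 5.02; 17.0-fold on that scale; limma adjusted p = 0.000526). It was higher in SJL than in B6 by 3.42 ± 0.41 (interval 2.48 to 4.36; 10.7-fold; adjusted p = 0.000728). SJL and KS differed by -0.67 (interval -1.60 to 0.27; adjusted p = 0.330), which was not called. Both calls against B6 held when any 1 of the 9 arrays was left out. Lce3f has 1 probe set, and sequence differences between the strains under its probes were not tested.

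The order of strain means was the same in the neighbours Lce3a, Lce3c and Crct1 of Lce3f, but none of these was called. Lce3a was at 1578 ± 840 in B6, 3134 ± 1016 in KS and 2665 ± 582 in SJL, and its difference of 1.13 between KS and B6 had an adjusted p of 0.227. Lce3c was at 1086 ± 416, 2675 ± 973 and 1995 ± 319, with a difference of 1.32 and an adjusted p of 0.0646. For both genes B6 replicate 2 was the lowest array, at 622 for Lce3a and 616 for Lce3c, and it was also the lowest of the 9 for Lce3f. The Lce3c probe set carries the suffix that marks probes shared with other transcripts, so its signal may belong in part to another gene. Crct1, the next gene after Lce3f, was at 122 ± 112 in B6, 247 ± 103 in KS and 155 ± 124 in SJL. Its difference of 1.32 between KS and B6 had a limma adjusted p of 0.402. Lce3b had the same order of means but was near the lower end on all arrays.

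Tgm1 encodes the membrane-bound transglutaminase that cross-links envelope precursors. Tgm1 (1451416_a_at) had intensities of 378, 287 and 448 in B6, 449, 481 and 478 in KS, and 157, 378 and 191 in SJL. All KS arrays lay above all SJL and B6 arrays, though the lowest KS array (449.1) barely exceeded the highest B6 array (448.3), and SJL and B6 overlapped. The mean was 469 ± 17.7 in KS and 242 ± 119 in SJL (SD, n = 3), a log2 difference of -1.03 ± 0.29 (SE; interval -1.69 to -0.36) that passed the threshold narrowly (limma adjusted p = 0.0482). The call was lost in 8 of the 9 fits that left out an array, with adjusted p from 0.0544 to 0.148, and was kept without SJL replicate 2 (0.00251). The moderated F-test over the 3 strains did not call it (adjusted p = 0.0849).

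Dsg1a encodes desmoglein 1 alpha, a desmosomal cadherin of upper epidermal layers. Dsg1a (1458000_at) was abundant, at 7015, 6150 and 5944 in B6, 6317, 5097 and 5473 in KS, and 6157, 5218 and 6193 in SJL. The strains overlapped and none of the contrasts was called. The intervals were narrow: -0.21 to 0.33 on the log2 scale for SJL against KS, -0.45 to 0.09 for KS against B6 and -0.39 to 0.15 for SJL against B6.

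Suprabasin, a secreted protein of suprabasal keratinocytes that transglutaminase can cross-link, was lowest in SJL. Sbsn (1439630_x_at) had 211, 302 and 317 in B6, 412, 458 and 461 in KS, and 99.3, 202 and 161 in SJL. No array of one strain overlapped with those of another, with KS on top, B6 in the middle and SJL at the bottom. SJL was lower than KS by a log2 difference of -1.52 ± 0.24 (SE; interval -2.07 to -0.97; 2.86-fold lower; limma adjusted p = 0.00358), in every fit that left out an array. The difference from B6 was -0.84 ± 0.24 (interval -1.39 to -0.28; adjusted p = 0.0494), and this call was lost in 7 of the 9 fits that left out an array, with adjusted p up to 0.136. It was kept without B6 replicate 1 and without SJL replicate 2. KS exceeded B6 by 0.68 (interval 0.13 to 1.23; adjusted p = 0.170), which was not called. The check probe set 1459897_a_at gave -1.26 for SJL against KS (adjusted p = 0.0107) and -0.75 for SJL against B6 (adjusted p = 0.0822). A further Sbsn probe set, 1459898_at, was near the lower end on all arrays, at 5.39 to 6.09, and the suffix of the first one marks shared probes.

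Caspase-14, a protease of cornifying cells that takes part in filaggrin processing in skin, was low in SJL. Casp14 (1418748_at) had intensities of 79.0, 40.5 and 114 in B6, 56.7, 51.0 and 35.5 in KS, and 6.51, 12.5 and 14.3 in SJL. All SJL arrays lay below all others and below 16, so the SJL level is an upper bound, and B6 and KS overlapped. SJL was lower than B6, with a log2 difference of -1.98 ± 0.32 on the log2(intensity + 10) scale (SE; interval -2.70 to -1.26; limma adjusted p = 0.00333), a call that held in all 9 fits that left out an array. It was lower than KS, with a difference of -1.45 ± 0.32 (interval -2.17 to -0.73; adjusted p = 0.0155), and this call was lost without KS replicate 1 (0.0585) and without KS replicate 2 (0.0584). KS and B6 differed by -0.53 (interval -1.25 to 0.19; adjusted p = 0.407). The other Casp14 probe set, 1443787_x_at, lay at 3.90 to 3.96 on all arrays and so could not serve as a check, and sequence differences under the probes were not tested for Casp14, Sbsn or Tgm1.

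**Figure D2:**
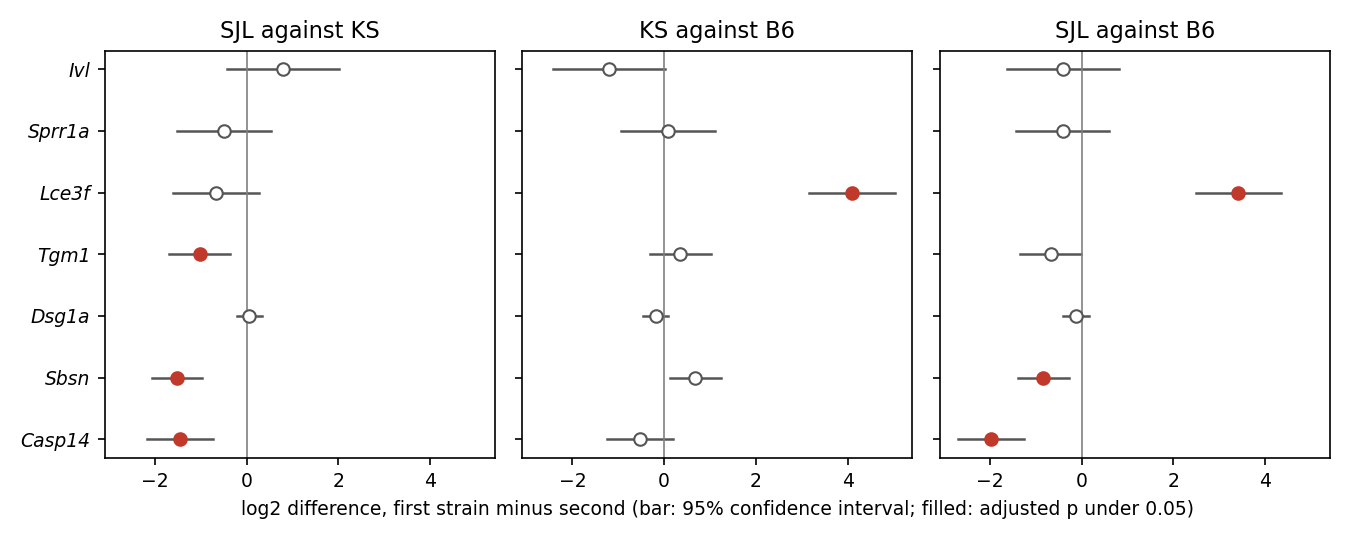
Log2 difference on the log2(intensity + 10) scale of the 7 tested members in each contrast, first strain minus second, as points with 95% confidence intervals; filled points have an adjusted p under 0.05. Lce3f stands at 4.09 and 3.42 in the contrasts with B6, and Sbsn, Casp14 and Tgm1 lie below 0 in SJL against KS.

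Of the 7 tested members, 0 were called higher and 3 lower in SJL than in KS (Sbsn, Casp14 and Tgm1). Over 10956 genes tested, 14.9% were called in that contrast, 6.8% higher and 8.08% lower in SJL. Comparing KS with B6 gave 1 member higher (Lce3f) and 0 lower, beside 6.27% of all genes tested, 3.4% higher and 2.87% lower in KS. In SJL against B6, 1 member was higher (Lce3f) and 2 were lower (Sbsn and Casp14), beside 16.1% of all genes tested, 8.39% higher and 7.68% lower in SJL. The F-test called Lce3f (adjusted p = 0.000373), Casp14 (0.00596) and Sbsn (0.00717), 3 of the 7 members, against 19.4% of all genes tested. With an unadjusted p under 0.05 limma found 3, 2 and 4 of the 7 members in these contrasts, beside 28.3%, 20.9% and 30.02% of all genes tested. In each of the 3 contrasts the arrays of the strains did not overlap for 3 of the 7 members, and the same held for 35.5%, 31.1% and 32.8% of all genes tested. The contrasts share the arrays of a strain, so the 3 counts are not independent. The median log2 difference of the tested members was -0.67, 0.08 and -0.41, and that of all genes tested 0.02, 0.01 and 0.02.

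Markers of other cell types of the cornea and its surroundings also differed between SJL and the other strains. The mean log2 value of the 10 conjunctival and mucosal markers was 7.50 to 7.88 on the SJL arrays and 8.04 to 8.47 on the others. In SJL against KS 4 of the 8 tested, Gpha2, Krt13, Muc4 and Krt18, were lower and 0 higher. In SJL against B6, 4 were lower (Krt4, Gpha2, Krt13 and Muc4) and 2 higher (Krt19 and Krt18). Among these markers the goblet cell genes Muc5ac and Tff1 were near the lower end on all 9 arrays. The endothelial markers averaged 10.37 to 10.66 in SJL and 10.96 to 11.25 in the other strains, and the keratocyte markers 12.0 to 12.2 and 12.3 to 12.7. Of the 2 tested hair and eyelid markers, S100a3 was called lower in SJL than in B6, and 0 were called in SJL against KS. Both were lower in SJL at an unadjusted p under 0.05 by limma in each of these contrasts. The 7 epithelial markers had median log2 differences of -0.01 between SJL and KS, -0.05 between KS and B6 and -0.03 between SJL and B6, with 0 called and 0 at an unadjusted p under 0.05 by limma. The part of these differences in the lower Sbsn, Casp14 and Tgm1 of SJL was not tested. Without KS replicate 3, the array with photoreceptor transcripts, the member calls were those given above except for Tgm1 in SJL against KS (adjusted p = 0.125) and Sbsn in SJL against B6 (0.0786).

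Mice of a strain varied more for most of these genes than for genes in general. The standard deviation within strains, pooled over the 3 strains on the log2 scale, was 0.77 for Ivl, 0.64 for Sprr1a, 0.59 for Lce3f, 0.45 for Casp14, 0.41 for Tgm1 and 0.34 for Sbsn, beside a median of 0.17 over all genes tested. Between 88.7% and 99.4% of tested genes had a smaller value than these 6 members. Dsg1a was unlike them, with 0.14 and 36.4% of genes below it.

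**Figure D3:**
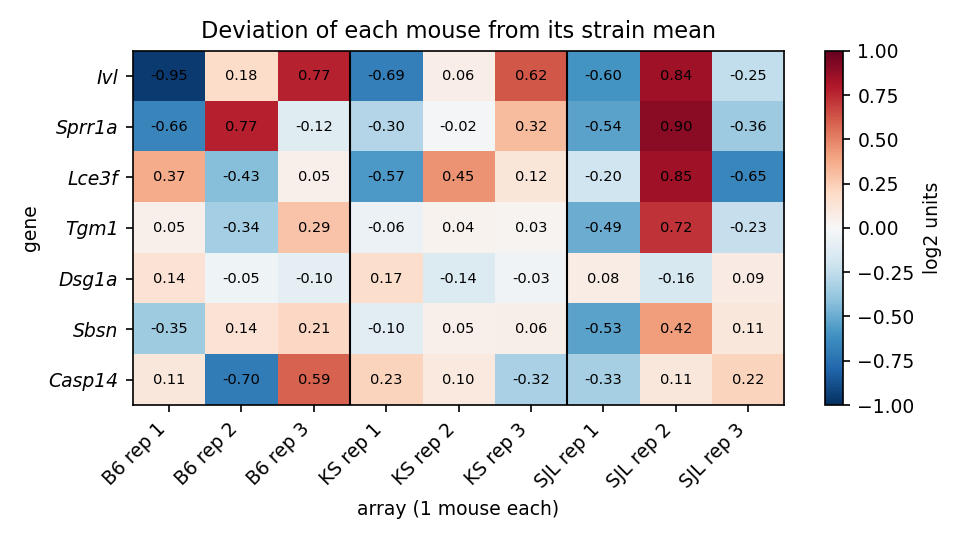
Deviation of each mouse from the mean of its strain, in log2 units, for the 7 tested members (rows) on the 9 arrays (columns). SJL replicate 2 is above its strain mean for 6 of the 7 genes, by 0.90 for Sprr1a and 0.85 for Lce3f, and Dsg1a stays within 0.17 of the mean on all arrays.

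Several members deviated together within mice. SJL replicate 2 was the highest SJL array for 5 of the 7 tested members (Lce3f, Ivl, Sbsn, Sprr1a and Tgm1), with a median deviation of 0.72 from the strain mean, against 0.04 for all genes tested. SJL replicate 1 was the lowest for 5 (Ivl, Sbsn, Casp14, Sprr1a and Tgm1), and KS replicate 1 was the lowest KS array for 5 (Lce3f, Ivl, Sbsn, Sprr1a and Tgm1). B6 replicate 3 was the highest B6 array for 4 (Ivl, Sbsn, Casp14 and Tgm1). Corneodesmosin (Cdsn), a glycoprotein of the desmosomes of cornified cells, was at 29.9, 97.3 and 157 in B6, at 4.37 to 4.47 in KS, and at 4.43, 142 and 4.47 in SJL. SJL replicate 2 and B6 replicate 3 were thus the arrays with the most Cdsn and also those with the highest 3' to 5' ratio of the Gapdh control, and the part of RNA integrity in this pattern was not tested. Over the 9 deviations, Ivl correlated at 0.82 with Sbsn and at 0.76 with Sprr1a, and Dsg1a at -0.87 with Ivl. Not all members took part alike. Casp14 correlated at 0.53 with Tgm1, 0.22 with Sbsn, 0.17 with Lce3f, 0.05 with Ivl, 0.01 with Dsg1a and -0.39 with Sprr1a. Dsg1a was negative with the 5 members other than Casp14 (-0.56 to -0.87). On B6 replicate 2 Sprr1a was the highest of its strain while Lce3f, Casp14 and Tgm1 were the lowest. These correlations describe 9 arrays, with the strain means removed and the scaling and quality of each array shared by all genes.

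Other genes of the skin barrier also ranged from clear signal to the lower end of the scale. Among 32 other envelope precursors with a probe set, 8 were clear, 3 lay in between and 21 were near the lower end. The clear ones were the plakins Evpl and Ppl, the protease inhibitors Cst6 and Csta1, Anxa1, S100a10, Lce3a and Lce3c. Those near the lower end included all 11 measured Lce1 genes, the 6 measured Sprr2 entries and Sprr3. Of the 11 tested, Cst6, which encodes cystatin M/E, was the 1 called gene, higher in KS than in B6 by 0.78 (3034 against 1772; limma adjusted p = 0.0253), a call that was lost in 5 of the 9 fits that left out an array. S100a10 and Csta1, named by the rule for lists without a call, differed by 0.01 and 0.20 in SJL against KS and by -0.08 and 0.22 in SJL against B6, none of them called.

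**Figure D4:**
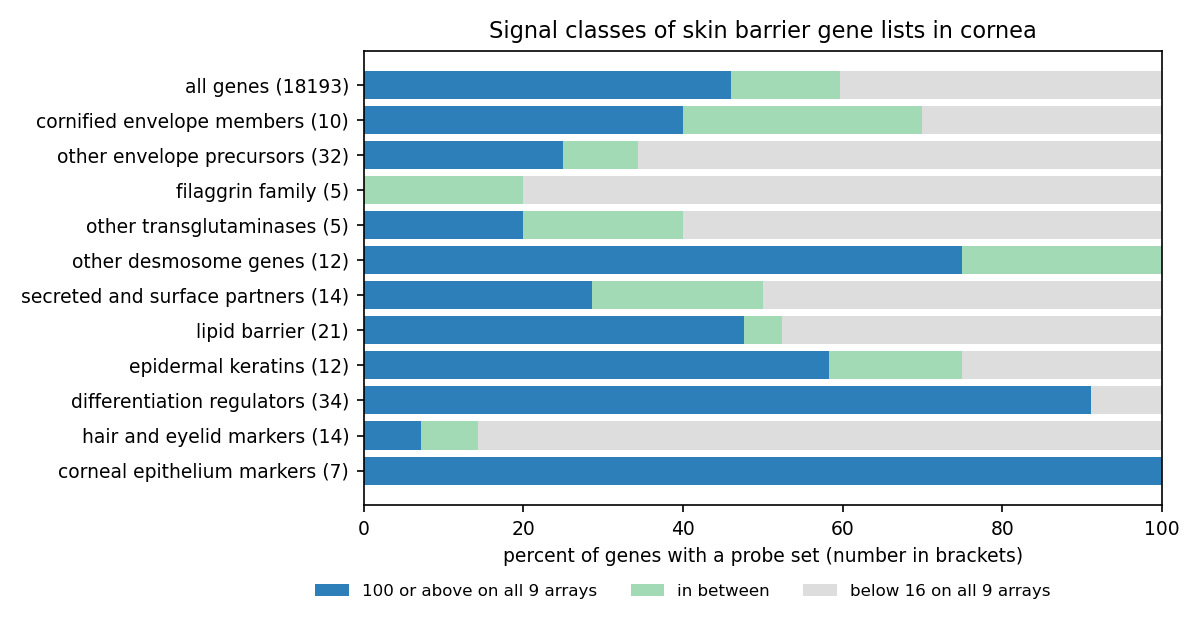
Percent of the genes with a probe set in each list that lay at 100 or above on all 9 arrays, below 16 on all 9, or in between; the number of genes stands in brackets. Filaggrin family genes had 0 of 5 clear, other desmosome genes 9 of 12 and differentiation regulators 31 of 34.

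Filaggrin bundles keratin in the cornifying layers, and 4 of the 5 genes of its family with a probe set gave little signal. Flg, Hrnr, Rptn and Tchhl1 lay near the lower end on all arrays. Trichohyalin (Tchh), best known from hair follicles, had 26.57, 24.97 and 36.86 in B6, 24.1, 19.9 and 9.44 in KS, and 5.58 to 5.68 in SJL, where its level is an upper bound. On the log2(intensity + 10) scale it was lower in SJL than in B6 (log2 difference -1.32, limma adjusted p = 0.00281) and than in KS (-0.79, 0.0322). The second call was lost without any 1 of KS replicates 1 and 2 and the 3 SJL replicates. The SJL values lay below the filter on dim probe sets (intensity 8.01), so Tchh was tested only through its higher B6 and KS values.

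Of 5 other transglutaminases, Tgm2, a widely expressed enzyme, was clear, Tgm5 lay in between, and Tgm3, Tgm6 and F13a1 were near the lower end. Tgm5, an enzyme of upper epidermal layers that also cross-links envelope proteins, had 440, 522 and 595 in B6, 436, 423 and 524 in KS, and 17.9, 27.6 and 16.8 in SJL. SJL lay far below both other strains, with a log2 difference of -3.95 ± 0.17 from KS (limma adjusted p = 1.55e-06) and -4.11 ± 0.17 from B6 (1.3e-06). Both calls held in every fit that left out an array. Tgm5 has no other tested probe set, and whether the SJL sequence matches its probes was not tested.

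Most desmosome genes gave signal, with 9 of 12 clear, 3 in between (Dsc1, Cdsn and Pkp2) and 0 near the lower end on all arrays. Dsc1 lay only at 11.9 to 19.9 over the arrays. Cdsn lay at 4.37 to 4.47 in KS and gave signal on some B6 and SJL arrays only, as given above. Dsp, Perp, Dsc2, Dsc3, Pkp1 and Jup were at 9631 or above on every array. Dsg2 was higher in KS than in B6 by 0.72 (3587 against 2170; limma adjusted p = 0.0118), with the same call in 3 of 5 further Dsg2 probe sets. It was lower in SJL than in KS (log2 difference -0.50; adjusted p = 0.0285), with the same call in 2 of the 5 and the call lost in 5 of the 9 fits that left out an array. Pkp2 was lower in SJL than in B6 (log2 difference -1.25; 54.4 against 143; adjusted p = 0.0245; lost in 4 of the 9).

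Among 14 secreted and surface partners, 4 were clear (Calml3, Asprv1, Lypd3 and Ly6g6c), 3 lay in between (Calm4, Il1f5 and Il1f9) and 7 were near the lower end. Dmkn, which lies between Sbsn and Krtdap, was one of the 7. Il1f9, an inflammatory cytokine of the interleukin-36 family, had 57.2, 6.67 and 41.1 in B6, 233, 440 and 102 in KS, and 527, 204 and 317 in SJL. All SJL and KS arrays lay above all B6 arrays, with a call in SJL against B6 (3.12, limma adjusted p = 0.0121) and none in KS against B6 (adjusted p = 0.0572). Il1f5, the receptor antagonist of the same family, was higher in KS than in B6 by 1.24 (adjusted p = 0.0168), a call lost without B6 replicate 2, KS replicate 1 or KS replicate 2. Lypd3 and Ly6g6c, a pair of small membrane-anchored proteins, differed by 0.31 and -0.30 in SJL against KS (adjusted p = 0.0466 and 0.0447), and each of these calls was lost in 8 of the 9 fits that left out an array.

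The lipid barrier list was divided, with 10 of 21 genes clear and 10 near the lower end. Near the lower end were Abca12, Alox12b, Aloxe3, Alox12e, Pnpla1, Cyp4f39, Lipn, Fa2h, Degs2 and Nipal4. The clear genes were Elovl1, Cers3, Ugcg, Smpd1, Abhd5, Sdr9c7, Lipk, Lipm, Slc27a4 and Spink5. Genes of ceramide and fatty acid metabolism stood in both classes, such as Cers3 and Elovl1 in the clear class and Fa2h and Degs2 in the other. Elovl4, which is also active in photoreceptors, was at 74.5 on KS replicate 3 and at 5.00 to 6.37 on the other arrays. Spink5, an inhibitor of the proteases that shed cornified cells, was higher in SJL than in KS, at 1493 against 581 (log2 difference 1.37; limma adjusted p = 0.00641). Cers3 was lower in SJL than in B6 (log2 difference -0.41; adjusted p = 0.0419; lost in 7 of the 9 fits that left out an array).

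Of 12 epidermal keratins with a probe set, 7 were clear, 2 lay in between and 3 were near the lower end. Krt5, Krt14, Krt6a, Krt6b, Krt78, Krt80 and Krt10 were clear, Krt1 and Krt16 lay in between, and Krt2, Krt77 and Krt17 were near the lower end. Krt1, the partner of Krt10 in suprabasal epidermis, was at 34.5 to 44.7 in B6, 38.4 to 45.5 in KS and 73.3 to 79.6 in SJL. It was higher in SJL by 0.73 against KS (limma adjusted p = 0.00165) and by 0.81 against B6 (0.000919), opposite in direction to the lower Sbsn and Casp14 of this strain. Krt14 was higher in SJL than in B6 by 0.37 (adjusted p = 0.0456; lost in 8 of the 9 fits that left out an array).

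Regulators of keratinocyte differentiation had the largest share of clear genes among the pathway lists, 31 of 34, including Klf4, Trp63, Grhl3, Ovol1, Zfp750 and the AP-1 genes Jun, Junb, Jund, Fos and Fosl2. Gata3, Pou2f3 and Fosl1 were near the lower end. Ahr, the aryl hydrocarbon receptor, was higher in SJL by 0.69 against B6 (limma adjusted p = 0.00201) and by 0.42 against KS (0.0221; lost in 5 of the 9 fits that left out an array). Grhl3, a transcription factor of barrier formation, was lower in SJL than in B6 (log2 difference -0.53; 0.0477; lost in 7 of the 9).

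Over all 8 pathway lists, 135 genes had a probe set, of which 70 were clear, 14 lay in between and 51 were near the lower end. These were 51.9%, 10.4% and 37.8%, close to the 46.0%, 13.7% and 40.3% of all genes. Of the 135 genes, 83 were tested. Limma called 4 higher and 4 lower in SJL against KS, 3 higher and 0 lower in KS against B6, and 4 higher and 5 lower in SJL against B6. With an unadjusted p under 0.05 there were 8 higher and 11 lower, 8 higher and 9 lower, and 9 higher and 12 lower, or 22.9%, 20.5% and 25.3% of the 83, each below the share of all genes given above. Their median log2 differences were -0.01, -0.08 and -0.11. Set against the shares of all genes called, given above, these are 8, 3 and 9 of 83 genes.

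Along chromosome 3, most measured genes of the epidermal differentiation complex gave signal near the lower end of the scale. Between S100a9 and S100a10 the annotation places 59 protein-coding genes, of which 39 had a probe set with a single symbol. Of these 39, 5 were clear (Sprr1a, Ivl, Lce3a, Lce3c and S100a10), 5 lay in between (S100a9, Kprp, Lce3f, Crct1 and Tchh) and 29 were near the lower end, or 74.4% against 40.3% of all genes. Sprr1a and Ivl are separated by 1 gene without a probe set here. Lce3a, Lce3c, Lce3f and Crct1 lie within 7 genes of each other, a stretch that also holds Lce3b, near the lower end, and 2 genes without a probe set, while S100a9, Kprp, Tchh and S100a10 lie apart from these. Lce3f and Ivl are separated by 22 genes. S100a9, a subunit of the neutrophil protein calprotectin that stressed epithelia also make, was at 27.8 ± 18.5 in B6, 278 ± 252 in KS and 340 ± 123 in SJL, and was called higher in SJL than in B6 (3.31; limma adjusted p = 0.0102) but not in KS than in B6 (2.71; adjusted p = 0.0515). It was named after its values were seen. Crct1 had no called contrast.

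**Figure D5:**
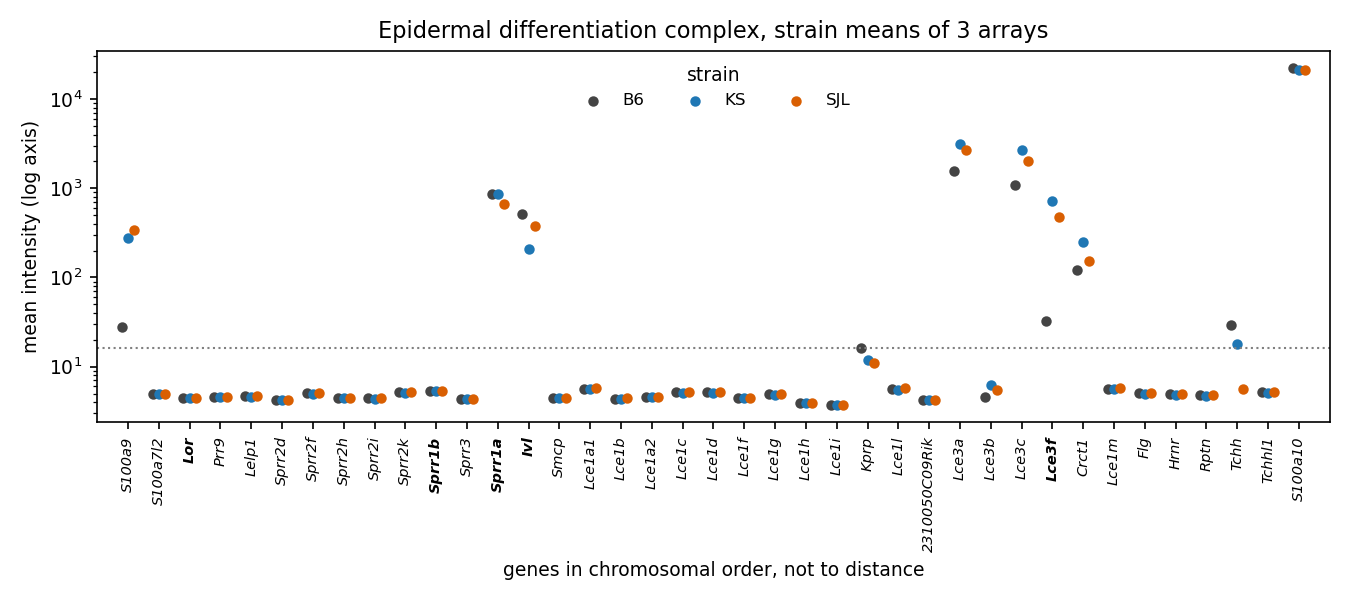
Mean intensity (log axis) in B6, KS and SJL, 3 arrays each, of the 39 genes with a probe set between S100a9 and S100a10, in chromosomal order and not to distance; the members are in bold and the dotted line marks 16. The 10 genes with signal on any array are S100a9, Sprr1a, Ivl, Kprp, Lce3a, Lce3c, Lce3f, Crct1, Tchh and S100a10, and the other 29 genes lie below the line on all arrays.

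For each member called by the F-test, the 3 tested genes with the most similar pattern were taken by the Pearson correlation of log2 values over the 9 arrays, as a description. For Lce3f they were Ube2d-ps (0.9912), Thyn1 (0.9749) and Trpm6 (0.973). All of them were low in B6 and high in KS and SJL, for example Trpm6 at 18.2 ± 3.56 in B6, 330 ± 17.0 in KS and 209 ± 54.8 in SJL. For Sbsn they were Kcnh1 (0.966), Cfap300 (0.963) and Chit1 (0.963), the last at 338 ± 99.4, 869 ± 40.3 and 88.1 ± 24.2. For Casp14 they were Ap4b1 (0.978), Mfge8 (0.9746) and Dcbld1 (0.972), the last at 69.9 ± 17.1, 57.0 ± 9.86 and 17.1 ± 3.07. None of these 9 genes belongs to the lists of the skin barrier.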

How the data were processed

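The authors deposited 1 linear intensity per probe set and array; its summary over probes, background correction and scaling are not given in the sources used here. Each array had an upper quartile of 379.6 to 396.3. Gene names came from the platform annotation: of 45037 probe sets that were not controls (64 controls were left out), 34945 had 1 symbol, 932 several and 9160 none. Promoters and gene order came from RefSeq tables of GRCm38.p6. Promoters of 9 of the 10 members were used, and that of Dsg1a was left out by the choice of chromosomes. The log2 of intensity plus a pseudocount of 10 was analysed, which understates changes of dim genes. Probe sets below the median of mean log2 values were left out, leaving 22519. Strain means were estimated by limma 3.58.1, run under R 4.3.3 (6 residual degrees of freedom, median 8.41 after moderation; two-sided). P-values were adjusted by Benjamini-Hochberg across the whole table of tested probe sets, and a gene was called at an adjusted p under 0.05. The fit was tested on simulated data. An exact permutation test of 3 against 3 arrays cannot go below 0.1 and was not used. Errors are SD over n = 3 mice or the SE of the fit. Alignment used Biopython 1.88 in Python 3.11.15. Array data have no read depth, so the number of arrays limits the precision.

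All 10 members were named in every contrast. Of each pathway list, up to 3 called genes with the largest absolute difference per contrast were named, and, without a call, up to 2 whose probe sets had the highest means. Members, lists and rules were chosen with earlier results of these data known. Alternatives were other filters, normalizations and pseudocounts, a variance trend, array weights, a replicate block, only the arrays compared, the mean of all probe sets, and each array left out.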

Additional observations from a re-analysis of the deposited data

How the results depend on the processing

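Called differences of Lce3f against B6, Sbsn in SJL against KS and Casp14 in SJL against B6 stayed called under all alternatives that tested them. The filter at the 70th percentile left Casp14 untested, and Lor, Krtdap and Sprr1b had a value with no filter only. Calls of Sbsn in SJL against B6 and of Tgm1 in SJL against KS were lost with no filter (adjusted p = 0.159 and 0.165), with median centring (0.0524 and 0.0518), with a pseudocount of 1 (0.0541 and 0.0521) and with only the 6 arrays compared (0.123 and 0.0813). The mean of all probe sets also lost Sbsn in SJL against B6 (0.0556). Casp14 in SJL against KS was lost with no filter (0.0719) and a pseudocount of 50 (0.0545). Array weights, whose estimation did not fully converge, made the most probe set calls. For the members, 389 recomputed values kept direction and side of the threshold, 29 lost a call, 5 gained one and 3 changed sign without being called. The last were the log2 differences of Sprr1a in KS against B6, which ranged from -0.24 (without B6 replicate 1) to 0.47 with an array left out and was -0.08 without KS replicate 3, and of Dsg1a in SJL against KS, which ranged from -0.010 (without KS replicate 2) to 0.14. Of the pathway genes, 295 kept their call and 96 lost it. Except where fewer genes or arrays entered, the cause was not tested.

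Members called numbered 1 in SJL against KS with no filter. With array weights they numbered 5 in SJL against KS, 2 in KS against B6 and 5 by the F-test. Leaving out an array gave 1 to 3 members in SJL against KS, 1 in KS against B6, 2 to 4 in SJL against B6 and 3 to 4 by the F-test. Pathway genes called in SJL against KS were 5 with a filter at the 70th percentile, 27 with array weights, 5 with only the 6 arrays compared and 3 to 7 with an array left out. In KS against B6 they were 7 with an intensity trend, 7 with array weights, 6 with the mean of all probe sets and 1 to 4 with an array left out. In SJL against B6 they were 5 with no filter, 4 with the stricter filter, 15 with the trend, 20 with array weights and 5 to 10 with an array left out. Probe sets called were 3489 for SJL and KS, 1286 for KS and B6 and 3605 for SJL and B6. The stricter filter gave 2101, 742 and 2156, array weights 9450, 2232 and 7364, and no filter 838 in KS against B6. Leaving out an array gave 2337 to 3643, 745 to 1452 and 2523 to 3674.

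The replicate number of the labels gave no clear sign of pairing the mice. Deviations from the strain means of arrays with the same number correlated at -0.27 to 0.26, and not every array correlated best with its own number. With 3 arrays per strain, these values cannot show that the mice were unpaired. As a block the replicate number gave 2, 1 and 3 members for the same contrasts and 3 by the F-test. It gave 6, 4 and 9 pathway genes and 3315, 1124 and 3509 probe sets. Among the members the block changed 1 call, that of Tgm1 in SJL against KS (adjusted p = 0.083).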
